A study of Mus musculus with 12 samples.

Results

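Epcam-negative cells of tumours that arose from Lgr5-expressing cells (Lgr5 Epcam-, 1 sample) were set against cells of the normal hair follicle (HF, 1 sample) by ATAC-seq, which counts DNA fragments cut out of open chromatin by the Tn5 transposase. These are 2 of the 6 samples of the study, chosen by their labels, and for each a single-end run and a paired-end run were summed, which makes 4 of 12 runs. The tumour mice carried Lgr5CreER, an inducible Cre recombinase driven by the promoter of the follicle stem cell gene Lgr5, together with p53fl/fl and Rosa-YFP+/+ alleles, and the HF mouse was WT. The other samples used beside them are 2 of Epcam-positive cells from tumours of the same Lgr5CreER genotype (Lgr5 Epcam+ 1 and 2), 1 of Epcam-positive cells from K14CreER tumours, in which Cre is driven by a basal keratinocyte promoter (K14 Epcam+), and 1 of WT interfollicular epidermis (IFE). All mice were female and of mixed strain, and ages were not given. Cells were sorted with antibodies against CD45 (leukocytes), CD31 (endothelium), CD140a (fibroblasts) and Epcam. The labels do not say that the Lgr5 Epcam+ samples came from separate animals, or how many animals were pooled, so the spread behind each p-value is that of these samples and may be technical.

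Epcam is an adhesion molecule on the surface of epithelial cells. In the epithelial to mesenchymal transition (EMT), carcinoma cells lose junctions and keratins and take up a motile, matrix-making state, under transcription factors of the Snai, Zeb, Twist and Prrx families. Factors such as Grhl2 and Ovol2, the splicing factors Esrp1 and Esrp2, and the miRNAs of the miR-200 family hold cells in the epithelial state, and follicle stem cells express Lgr5, Krt15, Lhx2 and Sox9. An accessible promoter or enhancer is open to such factors, but accessibility is not expression, and expression was not measured here.

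Lgr5 Epcam- had 41252832 counts in 177240 shared peaks and HF had 32086654, and the 6 samples spanned 32086654 to 62941406. The share of counts in peaks was 34.44% in Lgr5 Epcam- and 24% in HF, and the background expected inside peaks was 15.6% of the peak counts in Lgr5 Epcam- and 26% in HF. Levels are CPM, counts relative to library size after TMM scaling, per peak or summed over the peaks nearest to a protein-coding gene within 50 kb. With 1 sample a side there is no p-value for Lgr5 Epcam- over HF. A peak was called at an absolute log2 ratio of at least 2, with at least 1 in each run, and a gene at 1, with 0.5 in each run. The 95% intervals in square brackets are exact binomial ones and cover counting error only, since PCR reads are not independent molecules. Lgr5 Epcam- over Lgr5 Epcam+ was tested with edgeR over all 6 samples, in which HF cancels, so that it tests the difference between their changes from HF. Its single residual degree of freedom comes from the Lgr5 Epcam+ pair, and Lgr5 Epcam- is assumed to vary as that pair does.

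The labelled sort was visible at the Epcam gene. Its peaks had 49.4 CPM in Lgr5 Epcam-, 205.5 and 206.5 CPM in Lgr5 Epcam+ and 95.9 CPM in HF. Lgr5 Epcam- was the lowest of the 6 samples, and its log2 ratio to HF of -0.96 [-1.04 to -0.87] stayed just short of the limit. Against Lgr5 Epcam+ it fell (log2 -2.06, edgeR adjusted p = 0.00609). The peak over the Epcam promoter, chr17:87635629-87637349 on mm10, had 4.32 CPM in Lgr5 Epcam-, 40.0 and 35.6 CPM in Lgr5 Epcam+ and 11.1 CPM in HF. The follicle stem cell gene Lgr5 had 217.6 CPM in HF and 48.5 CPM in IFE, so HF held the marker of its label. A lower level in sorted cells can mean fewer cells with the open site or less opening per cell, and these cannot be told apart.

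With TMM scaling, peaks were called in both directions in similar number. Of 177238 peaks, 12533 (7.07%) were called higher and 11211 (6.33%) lower in Lgr5 Epcam- than in HF. Between the Lgr5 Epcam+ samples, which share a label, 769 peaks (0.434%) passed this rule as higher in sample 1 and 1705 (0.962%) as lower. The typical higher peak had 11 CPM in Lgr5 Epcam-, 5.85 and 5.61 CPM in Lgr5 Epcam+, 5.75 CPM in K14 Epcam+ and 1.82 CPM in HF (medians over the called peaks). The typical lower peak had 1.23 CPM in Lgr5 Epcam-, 1.6 and 2.07 CPM in Lgr5 Epcam+, 1.72 CPM in K14 Epcam+ and 8.36 CPM in HF. IFE had a median of 1.62 CPM at the higher and 5.46 CPM at the lower peaks. By these medians the Epcam-positive tumours lay between Lgr5 Epcam- and HF, close to Lgr5 Epcam- at the lower peaks. The peaks were picked for a large gap between Lgr5 Epcam- and HF, so other samples tend to fall between them. No graded order of the samples is read from this. Which direction had more calls depended on the scaling. Total-count scaling gave 10310 higher and 13280 lower, and DESeq2 size factors gave 13462 higher and 10462 lower. Subtraction of the background expected from counts outside peaks raised the calls to 32269 higher and 31447 lower.

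**Figure D1:**
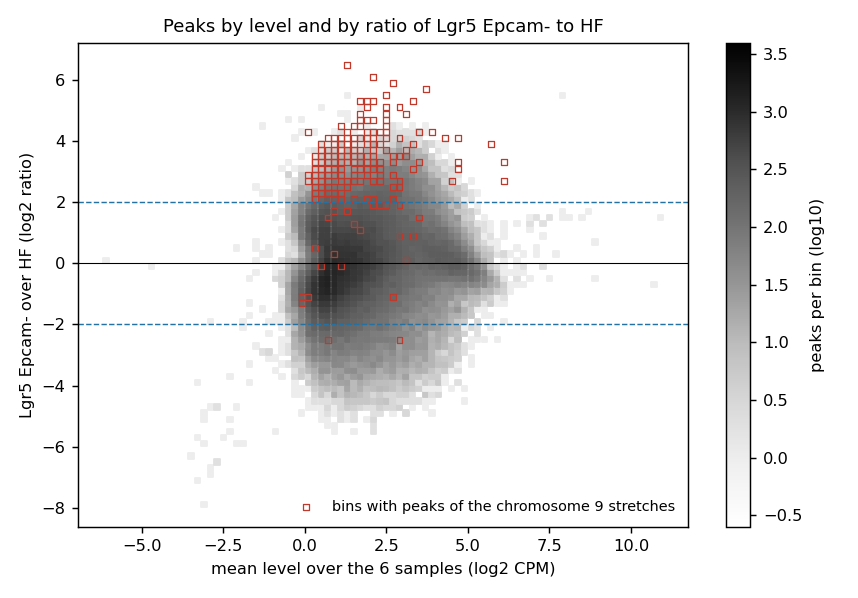
Log2 ratio of Lgr5 Epcam- to HF against the mean level of a peak over the 6 samples (log2 CPM), with peaks binned and shaded by their number (log10). Dashed lines mark the limit of 2 in either direction. Open red squares mark bins with peaks of the chromosome 9 stretches, which sit almost wholly above the upper line.

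Lgr5 Epcam+ and IFE share no library with Lgr5 Epcam- or HF, and of the 12533 higher peaks 62.4% were at least 2-fold higher in Lgr5 Epcam+ than in IFE, against 20.7% of all peaks, while 1.61% were at least 2-fold lower. Of the 11211 lower peaks 55.1% were at least 2-fold lower in Lgr5 Epcam+ than in IFE, against 20.2% of all peaks, and 2.6% were higher. In edgeR, 6.69% of all peaks rose in Lgr5 Epcam- over Lgr5 Epcam+ and 5.27% fell. Of the higher peaks 3897 rose and 151 fell, and of the lower peaks 1931 fell and 5 rose. This test shares the Lgr5 Epcam- library with the calls against HF, so here and below its counts among called peaks or genes are a description and no independent support for those calls. The same holds for its p-values at genes or peaks picked by their ratio to HF, such as a peak of largest change.

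Shares called differed by place. Within 1 kb of either end of a gene 3.87% of peaks were called higher and 2.88% lower, inside genes 7.19% and 6.06%, and beyond 50 kb from any gene 9.34% and 8.95%. Of 11489 peaks over a promoter window (250 bases before to 50 after a start), 358 (3.12%) were higher and 182 (1.58%) lower. Levels differed by place as well. The median in Lgr5 Epcam- was 9.29 CPM near gene ends, 16.4 CPM over promoter windows and 2.52 CPM beyond 50 kb. The part of level in these shares was not tested. Of 7203 genes with a called peak, 3029 had higher ones alone, 2663 lower ones alone and 1511 both.

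Summed per gene, 1634 of 18235 genes (8.96%) were called higher and 1622 (8.89%) lower, against 282 (1.55%) and 506 (2.77%) between the Lgr5 Epcam+ samples. In edgeR, 567 genes (3.11%) rose and 538 (2.95%) fell in Lgr5 Epcam- over Lgr5 Epcam+, so that 51.3% of the calls were higher. With total-count scaling the calls were 440 and 246, of which 64.1% were higher, and with DESeq2 533 and 795, of which 40.1% were higher. The median log2 ratio of Lgr5 Epcam- to HF over all genes was 0.01, beside which the medians of 26 gene lists are given below. Some of these depended on the setting. Centred on the neighbouring peaks, which takes out regional shifts, the median was -0.41 for junction genes, -0.65 for basal and simple keratins, 0.68 for collagens and matrix glycoproteins, 0.81 for matrix enzymes and 0.42 for the TGF-beta pathway. After subtraction of the background it was 1.94 for the EMT factors. In the plot of list members, epithelial and keratin lists sit at the bottom and matrix and EMT lists at the top.

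**Figure D2:**
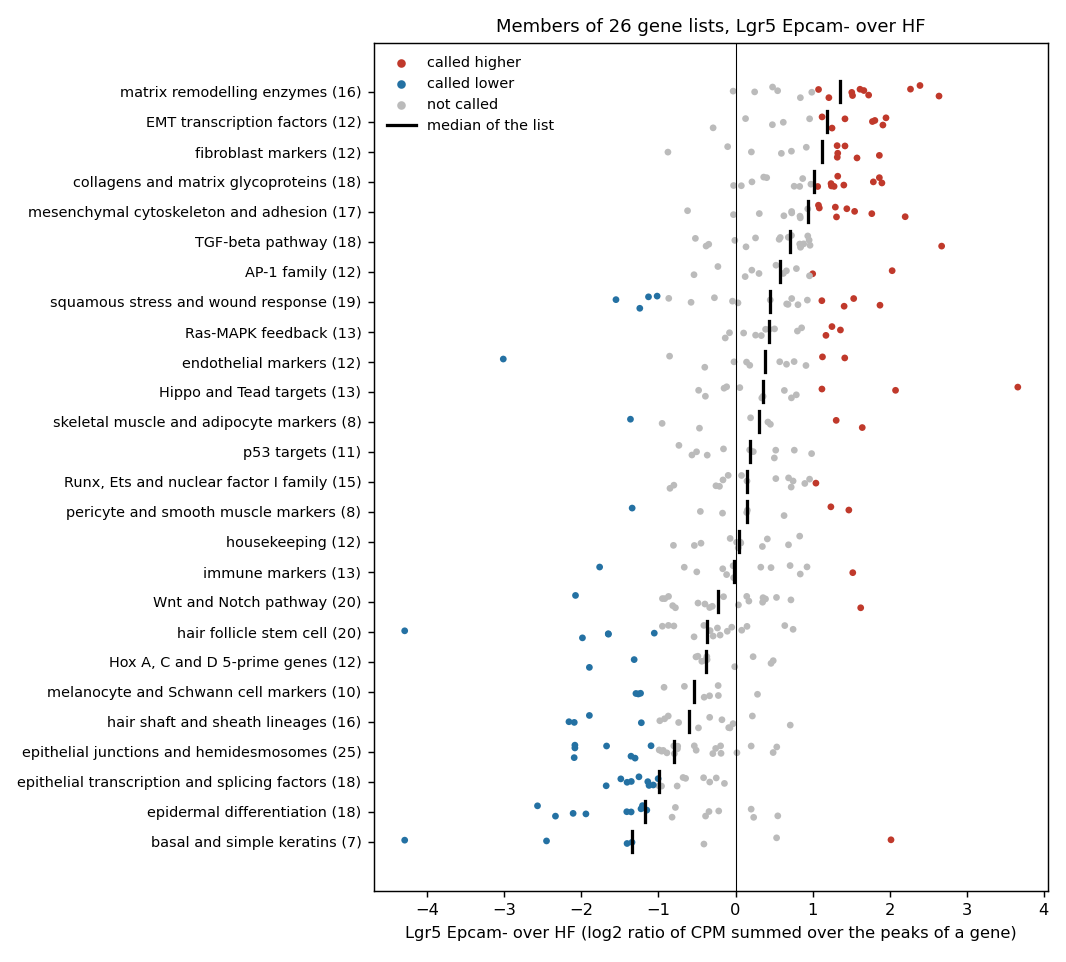
Log2 ratio of Lgr5 Epcam- to HF for each measured member of 26 gene lists (count in parentheses), as CPM summed over the peaks of a gene. Points are coloured by call, black bars are list medians, and the medians run from 1.36 for matrix remodelling enzymes to -1.34 for basal and simple keratins.

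Adhesion genes of the epithelium were less accessible in Lgr5 Epcam-. Of 25 genes of junctions and hemidesmosomes, 0 were called higher and 7 lower than in HF (Cdh1, Dsp, Pkp3, Dsg3, Dsc3, Perp and Col17a1; list median -0.79). Dsp, which encodes desmoplakin, the linker of desmosomes to keratin filaments, had 74.2 CPM in Lgr5 Epcam-, 284.7 and 256.6 CPM in Lgr5 Epcam+ and 316.9 CPM in HF. Its log2 ratio to HF was -2.09 [-2.16 to -2.03], and 11 of its 31 peaks were called lower. Lgr5 Epcam- stood alone at the low end, since the Epcam-positive tumours and the normal samples lay between 256.6 and 350.3 CPM. Perp, a desmosome protein of stratified epithelia (-2.08), and Dsg3, a desmosomal cadherin of the basal layer (-2.08), were lower to the same degree. Cdh1, the cadherin of adherens junctions, had 101.1 CPM in Lgr5 Epcam-, 308.7 and 259.0 CPM in Lgr5 Epcam+ and 258.9 CPM in HF (log2 ratio to HF -1.36 [-1.41 to -1.30]).

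Against Lgr5 Epcam+, 12 of the 25 junction genes fell and 0 rose in edgeR. Among them were Dsg3 (log2 -2.19, edgeR adjusted p = 0.00576), Dsp (-1.87, edgeR adjusted p = 0.00927) and Cdh1 (-1.49, edgeR adjusted p = 0.0199). Hemidesmosome genes gave a mixed picture. Col17a1 was called lower than HF at -1.10 and Lama3 had -0.75, whereas Dst had 0.20.

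Regulators that keep cells epithelial were lower or not called. Of 18 transcription and splicing factors 0 were called higher and 9 lower (among them Grhl1, Grhl2, Ovol1, Ovol2, Esrp1 and Tfap2c), all 18 had a ratio below 0, and the list median was -1. Grhl2, a transcription factor of epithelial junction genes, had 117.1 CPM in Lgr5 Epcam-, 405.0 and 298.9 CPM in Lgr5 Epcam+ and 328.7 CPM in HF. The ratio to HF was -1.49 [-1.54 to -1.44] and 11 of its 36 peaks were called lower. Esrp1, which directs epithelial splicing, had 53.5 CPM in Lgr5 Epcam-, 205.8 and 176.0 CPM in Lgr5 Epcam+ and 171.3 CPM in HF (-1.68 [-1.76 to -1.60]). For both genes Lgr5 Epcam- was the lowest of the 6 samples. The call of Ovol1 did not hold in the single-end run alone (-0.94). Against Lgr5 Epcam+ 8 of the 18 fell and 0 rose, among them Tfap2c (log2 -2.06, edgeR adjusted p = 0.0115), Esrp1 (-1.83, edgeR adjusted p = 0.0102) and Grhl2 (-1.59, edgeR adjusted p = 0.0187). Trp63, the master regulator of stratified epithelia, had 222.3 CPM in Lgr5 Epcam-, 507.8 and 405.7 CPM in Lgr5 Epcam+ and 442.8 CPM in HF. Its ratio of -0.99 was just inside the limit and was not called, nor was Lgr5 Epcam- over Lgr5 Epcam+ past the edgeR threshold (adjusted p = 0.0791).

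Basal and bulge keratin genes were lower in Lgr5 Epcam-, and the simple keratins went either way. Of 7 basal and simple keratins 1 was called higher (Krt18) and 4 lower (Krt5 and Krt14, the basal pair, Krt15, a keratin of the follicle bulge, and Krt19; median -1.34), and 3 fell and 0 rose against Lgr5 Epcam+. Krt15 had 9.18 CPM in Lgr5 Epcam-, 19.96 and 24.7 CPM in Lgr5 Epcam+, 19.9 CPM in K14 Epcam+, 180.9 CPM in HF and 147.5 CPM in IFE. All 4 tumour samples were far below both normal ones, and the ratio of Lgr5 Epcam- to HF was -4.29 [-4.46 to -4.14]. Krt5 had 40.1 CPM in Lgr5 Epcam-, 262.3 and 160.9 CPM in Lgr5 Epcam+ and 219.8 CPM in HF (-2.45 [-2.54 to -2.37]). Here only Lgr5 Epcam- was low, and it fell against Lgr5 Epcam+ (log2 -2.40, edgeR adjusted p = 0.00761). Krt14 had 50.6 CPM in Lgr5 Epcam-, 211.8 and 223.8 CPM in Lgr5 Epcam+ and 134.2 CPM in HF (-1.41 [-1.49 to -1.33]). Centred on the neighbouring peaks, the ratio of Krt14 was -0.76 and below the limit. Krt18, a keratin of simple epithelia, went the other way with 89.4 CPM in Lgr5 Epcam-, 101.4 and 53.5 CPM in Lgr5 Epcam+ and 22.1 CPM in HF (2.02 [1.90 to 2.15]).

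Several genes of follicle stem cells were low in tumours of either Epcam class. Of 20 follicle stem cell genes 5 were called lower (Krt15, Cxcl14, Lgr5, Lhx2 and Lgr6) and 0 higher (median -0.37). Lgr5 had 69.2 CPM in Lgr5 Epcam-, 55.7 and 75.1 CPM in Lgr5 Epcam+, 69.4 CPM in K14 Epcam+ and 217.6 CPM in HF (-1.65 [-1.72 to -1.58]). Lhx2, a transcription factor of the bulge stem cells, had 99.9 CPM in Lgr5 Epcam-, 62.5 and 71.3 CPM in Lgr5 Epcam+ and 313.4 CPM in HF (-1.65 [-1.71 to -1.59]). HF stood above every other sample for both. Neither gene passed the edgeR threshold between Lgr5 Epcam- and Lgr5 Epcam+ (adjusted p = 0.944 for Lgr5 and 0.323 for Lhx2), which does not show that they are alike. Of the 20 genes 1 fell, Krt15, and 1 rose, Nfix (log2 1.19, edgeR adjusted p = 0.0493). Sox9, another stem cell factor, had a ratio to HF of -0.05, Cd34 0.08 and Runx1 0.75, none of them called.

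Some genes of the follicle and epidermal lineages were lower too. Of 16 hair shaft and sheath genes 4 were called lower and 0 higher (Hoxc13, Krt31, Krt72 and Krt75; median -0.61), and 10 of 18 epidermal differentiation genes were lower and 0 higher (median -1.18). Krtdap, a secreted protein of differentiating keratinocytes, had 13.5 CPM in Lgr5 Epcam-, 84.4 and 110.2 CPM in Lgr5 Epcam+ and 80.2 CPM in HF (-2.57 [-2.72 to -2.43]). It fell against Lgr5 Epcam+ (log2 -2.85, edgeR adjusted p = 0.00311). Hoxc13, a regulator of hair keratins, had 20.7 CPM in Lgr5 Epcam-, 18.2 and 24.1 CPM in Lgr5 Epcam+ and 77.1 CPM in HF (-1.90 [-2.02 to -1.78]). Against Lgr5 Epcam+, 4 of the shaft genes and 4 of the differentiation genes fell and 0 rose.

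Among the transcription factors of EMT, 7 of 12 were called higher than in HF and 0 lower (Snai1, Twist1, Zeb2, Prrx1, Twist2, Prrx2 and Zeb1; median 1.19). Snai1, a repressor of Cdh1, had 203.0 CPM in Lgr5 Epcam-, 182.8 and 199.6 CPM in Lgr5 Epcam+, 134.5 CPM in K14 Epcam+ and 52.5 CPM in HF (1.95 [1.87 to 2.03]). Twist1 had 66.4 CPM in Lgr5 Epcam-, 42.4 and 47.4 CPM in Lgr5 Epcam+ and 17.6 CPM in HF (1.91 [1.78 to 2.06]). For both, all tumour samples lay above both normal ones. Zeb2 had 203.7 CPM in Lgr5 Epcam-, 121.4 and 155.5 CPM in Lgr5 Epcam+ and 58.2 CPM in HF (1.81 [1.73 to 1.89]), with 10 of 22 peaks called higher. Zeb1, the second Zeb repressor of epithelial genes, had 167.8 CPM in Lgr5 Epcam-, 77.9 and 116.3 CPM in Lgr5 Epcam+ and 77.0 CPM in HF (1.12 [1.05 to 1.19]; 0.78 and no longer called when centred on neighbouring peaks). Snai2 had 56.8 CPM in Lgr5 Epcam- and 51.9 CPM in HF (0.13), and was not called.

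None of the 12 factors passed the edgeR threshold in Lgr5 Epcam- over Lgr5 Epcam+, with 0 rising and 0 falling, where 3.11% of all genes rose and 3536 genes had an unadjusted p under 0.05. The log2 ratios were 0.09 ± 0.30 for Snai1, 0.57 ± 0.28 for Twist1, 0.56 ± 0.31 for Zeb2, 0.61 ± 0.30 for Prrx1 and 0.79 ± 0.32 for Zeb1 (log2 ± SE). Lgr5 Epcam+ itself stood above HF at this list, with medians of 0.86 in either sample. A peak over an inner Zeb2 promoter window, chr2:45112466-45113763, had 12.4 CPM in Lgr5 Epcam-, 2.72 and 4.01 CPM in Lgr5 Epcam+ and 2.94 CPM in HF. It rose over Lgr5 Epcam+ (log2 1.89, edgeR adjusted p = 0.0439). The 12 genes hold 234 peaks, and 6.69% of all peaks rose in this test, so this peak does not show a rise of Zeb2 as a whole.

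**Figure D3:**
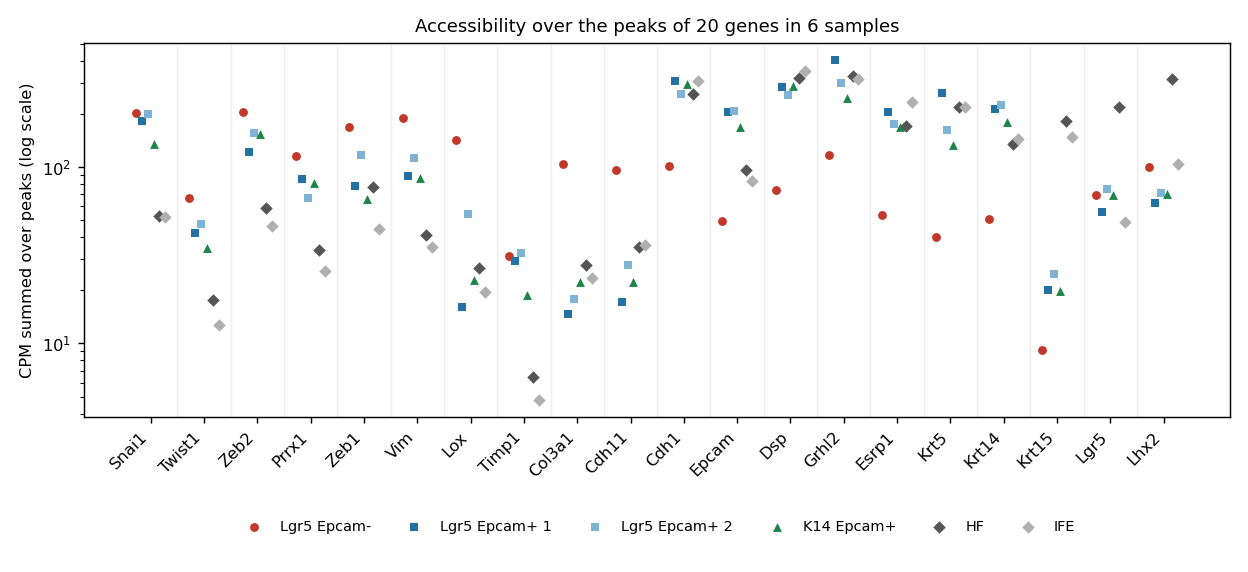
CPM summed over the peaks of a gene (log axis) for 20 genes in each of the 6 samples. For Cdh1, Epcam, Dsp, Grhl2, Esrp1, Krt5 and Krt14 the red point of Lgr5 Epcam- lies below all others, for Col3a1 and Cdh11 above all others, and for Krt15 the 4 tumour samples lie below both normal ones.

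Some genes that mesenchymal cells use for their skeleton and adhesion were higher. Of 17 members 8 were called higher and 0 lower (median 0.94), with Thy1 at -0.62 and Cnn1 at -0.03 among those not called, and 4 rose and 0 fell against Lgr5 Epcam+. One of the 8, Ncam1, has a peak in a chromosome 9 stretch. Vim, the intermediate filament that replaces keratin in mesenchymal cells, had 188.2 CPM in Lgr5 Epcam-, 89.0 and 111.9 CPM in Lgr5 Epcam+ and 40.9 CPM in HF (2.20 [2.11 to 2.29]). The peak of largest change, chr2:13583108-13584393, which lies 282 bp past the 3′ end of Vim, had 35.02 CPM in Lgr5 Epcam-, 6.02 and 4.32 CPM in Lgr5 Epcam+ and 1.62 CPM in HF, and rose against Lgr5 Epcam+ (log2 2.76, edgeR adjusted p = 0.00621). Cdh11, a mesenchymal cadherin, had 96.4 CPM in Lgr5 Epcam-, 17.2 and 27.9 CPM in Lgr5 Epcam+ and 35.4 CPM in HF (1.44 [1.35 to 1.55]). It rose against Lgr5 Epcam+ (log2 2.10, edgeR adjusted p = 0.00583), as did Cdh2, the neural cadherin (1.86, edgeR adjusted p = 0.0172), and Tagln, an actin-binding protein (2.21, edgeR adjusted p = 0.0144).

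Collagen genes such as Col3a1 and Col1a2 were higher in Lgr5 Epcam- than in the other 5 samples. Of 18 collagens and matrix glycoproteins 9 were called higher than HF and 0 lower (median 1.02), and 9 rose and 0 fell against Lgr5 Epcam+, whose own medians over HF were -0.35 and -0.03. Col3a1, a fibrillar collagen, had 103.6 CPM in Lgr5 Epcam-, 14.7 and 17.9 CPM in Lgr5 Epcam+ and 27.7 CPM in HF (1.90 [1.79 to 2.01]). Col1a2, a chain of type I collagen, had 135.7 CPM in Lgr5 Epcam-, 12.9 and 18.1 CPM in Lgr5 Epcam+ and 55.9 CPM in HF (1.28 [1.20 to 1.36]). Against Lgr5 Epcam+ the log2 ratio was 2.67 ± 0.29 for Col3a1 (edgeR adjusted p = 0.00123) and 3.13 ± 0.30 for Col1a2 (edgeR adjusted p = 0.000596). Col6a2 (1.79 over HF) was called on peaks up to 50 kb away, and with peaks within 10 kb its ratio was 0.43. Sparc (-0.02) and Tnc (0.08), matrix glycoproteins, had about the same level in Lgr5 Epcam- and HF.

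Enzymes that remodel matrix were higher in Lgr5 Epcam- than in HF for 10 of 16 members and lower for 0 (median 1.36). Lox, which cross-links collagen, had 141.2 CPM in Lgr5 Epcam-, 16.1 and 54.4 CPM in Lgr5 Epcam+ and 26.8 CPM in HF (2.39 [2.29 to 2.51]). Mmp19 had 43.5 CPM in Lgr5 Epcam-, 28.2 and 17.0 CPM in Lgr5 Epcam+ and 6.93 CPM in HF (2.64 [2.44 to 2.87]). Timp1, an inhibitor of metalloproteinases, had 31.3 CPM in Lgr5 Epcam-, 29.2 and 32.6 CPM in Lgr5 Epcam+ and 6.45 CPM in HF (2.27 [2.05 to 2.51]). Timp1 was above HF in all of these tumours, and Lox was highest in Lgr5 Epcam-. Against Lgr5 Epcam+ 2 members rose, Adam19 (log2 1.96, edgeR adjusted p = 0.0105) and Loxl2 (1.67, edgeR adjusted p = 0.0465), and 0 fell.

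Markers of other cell types moved beside these groups. Of 12 fibroblast markers 6 were called higher than HF and 0 lower (median 1.12; Twist2, Lum and Dcn are also in the lists above), and 4 rose against Lgr5 Epcam+. Their summed level was 966 CPM in Lgr5 Epcam-, 541 and 675 CPM in Lgr5 Epcam+ and 628 CPM in HF. Pdgfra, which encodes the sorted antigen CD140a, had 122.3 CPM in Lgr5 Epcam-, 77.7 and 79.0 CPM in Lgr5 Epcam+ and 64.7 CPM in HF (0.92, not called). Of 8 pericyte and smooth muscle markers 2 were higher and 1 lower. Rgs5, a pericyte gene, had 38.8 CPM in Lgr5 Epcam-, 4.10 and 7.08 CPM in Lgr5 Epcam+ and 13.97 CPM in HF, and rose against Lgr5 Epcam+ (log2 2.80, edgeR adjusted p = 0.00539). Their part in the mesenchymal results was not tested.

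Leukocyte and endothelial markers were called in both directions, where 8.96% of all genes were called higher and 8.89% lower. The counts are small and near these shares, so they are not read as a result about these cell types. Of 13 measured immune markers 1 was called higher (Csf1r, 1.52) and 1 lower (Ncr1), with 246 CPM in sum in Lgr5 Epcam-, 262 and 298 CPM in Lgr5 Epcam+ and 180 CPM in HF. Ptprc, which encodes CD45, had 72.2 CPM in Lgr5 Epcam- and 44.2 CPM in HF (0.71, not called). Against Lgr5 Epcam+ 1 immune marker rose (Csf1r, log2 1.28, edgeR adjusted p = 0.0417) and 0 fell. Of 12 endothelial markers 2 were higher (Emcn, 1.42, and Flt1, 1.13, with 0.88 and 0.96 from peaks within 10 kb) and 1 lower (Sox17, -3.01), and Pecam1, which encodes CD31, had 94.0 CPM in Lgr5 Epcam- and 123.9 CPM in HF. Against Lgr5 Epcam+ 2 endothelial markers rose (Emcn, log2 1.09, edgeR adjusted p = 0.0437, and Tek, log2 1.17, edgeR adjusted p = 0.0468) and 0 fell. After subtraction of the background the median against HF was 0.52 for immune markers, against -0.02 without it, and 0.94 for endothelial markers, against 0.38. Melanocyte and Schwann cell markers had 0 higher and 3 lower of 10 measured (median -0.54), and muscle and adipocyte markers 2 higher and 1 lower of 8 (median 0.31). Of 12 housekeeping genes 0 were called in either direction.

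The promoters under called peaks are shown for a lost pair (Krt5 and Dsp) and a gained pair (Vim and Snai1), since a called peak covers the gene start there. These peaks are wider than the windows, so their CPM is not that of the window alone. The windows run from 250 bases before to 50 after the start in RefSeq on GRCm38.p6 and are written 5′ to 3′ on the strand of the gene. Capitals mark CAGGTG on either strand, an E-box of the kind that Zeb and Snai repressors bind.
Krt5, chr15:101712856-101713155, minus strand: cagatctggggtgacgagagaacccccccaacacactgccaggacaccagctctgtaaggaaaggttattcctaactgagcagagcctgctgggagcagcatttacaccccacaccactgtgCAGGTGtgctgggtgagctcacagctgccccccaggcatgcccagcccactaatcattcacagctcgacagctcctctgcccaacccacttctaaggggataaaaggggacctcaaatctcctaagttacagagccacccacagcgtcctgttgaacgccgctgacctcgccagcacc
Dsp, chr13:38151044-38151343, plus strand: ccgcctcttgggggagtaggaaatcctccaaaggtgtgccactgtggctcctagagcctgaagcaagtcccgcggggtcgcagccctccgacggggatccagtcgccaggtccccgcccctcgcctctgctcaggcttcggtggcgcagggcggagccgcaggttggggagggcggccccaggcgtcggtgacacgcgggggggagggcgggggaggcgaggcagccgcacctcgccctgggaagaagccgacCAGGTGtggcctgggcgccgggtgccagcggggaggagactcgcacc
Vim, chr2:13574061-13574360, plus strand: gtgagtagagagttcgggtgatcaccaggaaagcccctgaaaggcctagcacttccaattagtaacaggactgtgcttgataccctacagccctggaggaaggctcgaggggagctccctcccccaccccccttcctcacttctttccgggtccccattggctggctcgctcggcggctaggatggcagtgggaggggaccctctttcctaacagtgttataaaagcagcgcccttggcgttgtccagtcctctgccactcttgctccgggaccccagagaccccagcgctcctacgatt
Snai1, chr2:167537945-167538244, plus strand: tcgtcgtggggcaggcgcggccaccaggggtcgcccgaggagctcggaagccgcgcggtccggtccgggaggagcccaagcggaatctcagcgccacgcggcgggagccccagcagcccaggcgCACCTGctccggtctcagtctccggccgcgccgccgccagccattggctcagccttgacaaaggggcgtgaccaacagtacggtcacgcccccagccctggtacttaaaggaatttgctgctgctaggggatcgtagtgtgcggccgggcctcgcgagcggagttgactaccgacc
Krt5, Dsp and Snai1 hold 1 CAGGTG each and Vim holds 0. A match is a description of these letters and not a bound site.

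The peak over the Krt5 window had 15.8 CPM in Lgr5 Epcam-, 120.0 and 76.0 CPM in Lgr5 Epcam+ and 86.3 CPM in HF (-2.44 [-2.57 to -2.33]). It fell against Lgr5 Epcam+ (log2 -2.63, edgeR adjusted p = 0.000993). The peak over the Dsp window had 4.65 CPM in Lgr5 Epcam-, 21.9 and 18.4 CPM in Lgr5 Epcam+ and 24.9 CPM in HF (-2.41 [-2.65 to -2.20]; Lgr5 Epcam- over Lgr5 Epcam+ -2.11, edgeR adjusted p = 0.00495). At both, Lgr5 Epcam- was the lowest of the 6 samples. The peak over the Vim window had 41.2 CPM in Lgr5 Epcam-, 33.1 and 32.0 CPM in Lgr5 Epcam+ and 6.88 CPM in HF (2.57 [2.39 to 2.78]). The peak over the Snai1 window had 19.8 CPM in Lgr5 Epcam-, 23.6 and 23.7 CPM in Lgr5 Epcam+ and 4.402 CPM in HF (2.16 [1.93 to 2.42]). At the Vim and Snai1 peaks all 4 tumour samples lay above both normal ones. Lgr5 Epcam- over Lgr5 Epcam+ did not pass the threshold there (edgeR adjusted p = 0.549 for Vim and 0.765 for Snai1). The promoter peaks of Twist1 (2.94) and Prrx1 (2.62) were also called higher than HF.

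Among all promoter windows with a peak, 13788 in number, 18.9% hold CAGGTG on either strand, 5.91% hold TGANTCA, the letters that AP-1 binds, and 63.6% hold GGGCGG on either strand. Of 196 windows under a peak called lower, 33.7% hold CAGGTG, 9.69% TGANTCA and 34.2% GGGCGG. Of 393 windows under a peak called higher, 15.3% hold CAGGTG, 10.4% TGANTCA and 52.9% GGGCGG. Base composition moved with these shares: median GC was 54% in the lower windows, 59.7% in the higher ones and 61% in all windows with a peak, with 5, 13 and 20 CpG. Its part in the shares was not tested.

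The loci of miRNAs were read from peaks within 10 kb of a hairpin. The 721 distinct windows had a median log2 ratio of Lgr5 Epcam- to HF of 0.17, and by the rule for genes 124 (17.2%) were called higher and 50 (6.93%) lower. The windows named here were picked after their values were seen, for miRNAs known in epithelial cells, EMT and squamous carcinoma. The windows were not tested with edgeR. The single peak given for a window is that of largest ratio to HF, so its edgeR p-value is a description. Mature sequences from RefSeq (GRCm38.p6) are given 5′ to 3′ with the seed, bases 2 to 8, in capitals. The first set holds miRNAs known from epithelial cells.
miR-200b-3p: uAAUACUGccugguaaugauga
miR-429-3p: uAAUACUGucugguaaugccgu
miR-200c-3p: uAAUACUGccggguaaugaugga
miR-200a-3p: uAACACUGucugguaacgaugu
miR-141-3p: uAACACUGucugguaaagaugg
miR-205-5p: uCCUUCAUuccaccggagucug
miR-203-3p: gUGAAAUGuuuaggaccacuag
Loci that were higher in Lgr5 Epcam- than in HF encode these.
miR-21a-5p: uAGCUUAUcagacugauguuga
miR-199a-3p: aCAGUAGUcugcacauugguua
miR-214-3p: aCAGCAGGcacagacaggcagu
miR-155-5p: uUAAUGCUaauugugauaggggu
By seed, miR-200b, miR-429 and miR-200c form 1 group and miR-200a and miR-141 another. Both groups are known to repress Zeb1 and Zeb2, as is miR-205, while miR-203 is a miRNA of differentiating epidermis.

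The cluster of Mir200b, Mir200a and Mir429 on chromosome 4 had 9.20 CPM over 6 peaks in Lgr5 Epcam-, 89.6 and 79.3 CPM in Lgr5 Epcam+, 77.2 CPM in K14 Epcam+, 93.7 CPM in HF and 90.2 CPM in IFE. Its ratio to HF of -3.34 was the fourth lowest of the 721 windows. The other 5 samples lay between 77.2 and 93.7 CPM, so Lgr5 Epcam- stood alone. The peak of largest change was chr4:156059094-156060200, 3344 bp from the Mir200b hairpin, with 2.62 CPM in Lgr5 Epcam-, 47.9 and 42.9 CPM in Lgr5 Epcam+ and 60.4 CPM in HF (-4.50 [-4.82 to -4.25]). It fell against Lgr5 Epcam+ (log2 -4.12 ± 0.31, edgeR adjusted p = 8.83e-05).

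The second cluster of the family, Mir200c and Mir141 on chromosome 6, had 33.3 CPM over 5 peaks in Lgr5 Epcam-, 45.5 and 43.9 CPM in Lgr5 Epcam+ and 49.3 CPM in HF (-0.57, not called). One of its peaks, chr6:124718063-124719583, which covers the Mir200c hairpin, had 2.33 CPM in Lgr5 Epcam-, 6.31 and 8.19 CPM in Lgr5 Epcam+, 26.5 CPM in K14 Epcam+ and 17.9 CPM in HF (-2.92 [-3.26 to -2.64]). It fell against Lgr5 Epcam+ (log2 -1.63, edgeR adjusted p = 0.0325). At this locus the Lgr5 Epcam+ samples were also below HF.

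Mir205 on chromosome 1 had 35.5 CPM over 9 peaks in Lgr5 Epcam-, 183.7 and 188.3 CPM in Lgr5 Epcam+ and 145.4 CPM in HF (-2.03), with 5 peaks called lower. The peak of largest change, chr1:193509673-193510899, lies 2143 bp from the hairpin and had 1.82 CPM in Lgr5 Epcam-, 26.4 and 30.4 CPM in Lgr5 Epcam+ and 26.3 CPM in HF (log2 over Lgr5 Epcam+ -3.96, edgeR adjusted p = 0.000488). Mir203 had 18.6 CPM in Lgr5 Epcam-, 108.0 and 61.7 CPM in Lgr5 Epcam+ and 57.5 CPM in HF (-1.63). At both loci Lgr5 Epcam- was the lowest of the 6 samples. The peak of largest change in the Mir203 window fell against Lgr5 Epcam+ (log2 -3.02, edgeR adjusted p = 0.00208).

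Mir21a, a miRNA raised in many carcinomas, lies at chromosome 11 beside Vmp1. Its window had 239.1 CPM over 9 peaks in Lgr5 Epcam-, 237.9 and 243.0 CPM in Lgr5 Epcam+, 217.8 CPM in K14 Epcam+, 30.8 CPM in HF and 40.9 CPM in IFE (2.96 over HF, 8 peaks called higher). All 4 tumour samples lay between 217.8 and 243.0 CPM, and the peak of largest change did not pass the edgeR threshold between Lgr5 Epcam- and Lgr5 Epcam+ (adjusted p = 0.483). Mir199a-2 had 66.2 CPM in Lgr5 Epcam-, 42.9 and 89.2 CPM in Lgr5 Epcam+ and 8.72 CPM in HF (2.92), and its neighbour Mir214 50.3 CPM in Lgr5 Epcam-, 27.3 and 69.5 CPM in Lgr5 Epcam+ and 7.43 CPM in HF (2.75). These windows share peaks. Mir155 had 12.9 CPM in Lgr5 Epcam-, 2.95 and 2.70 CPM in Lgr5 Epcam+ and 3.58 CPM in HF (1.83), and its peak of largest change rose against Lgr5 Epcam+ (log2 2.24, edgeR adjusted p = 0.0194).

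**Figure D4:**
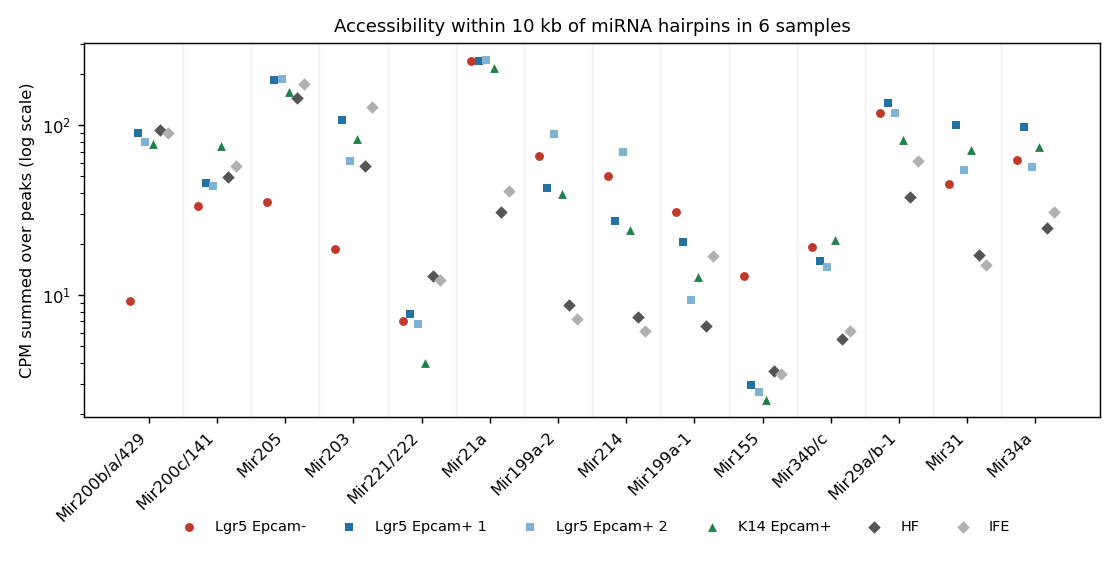
CPM summed over the peaks within 10 kb of a miRNA hairpin (log axis) for 14 windows in each of the 6 samples. Lgr5 Epcam- is alone and low at Mir200b/Mir200a/Mir429, Mir205 and Mir203, alone and high at Mir155, and level with the other tumours at Mir21a.

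Squamous wound and stress genes were called in both directions. Of 19 members 4 were called higher than HF (Cxcl2, Cxcl1, Ereg and Lif) and 4 lower (Krt6a, Krt17, Il1b and Sprr2d; median 0.45), and 6 fell and 0 rose against Lgr5 Epcam+. Krt6a, a keratin of wounded and hyperplastic epidermis, had 19.5 CPM in Lgr5 Epcam-, 162.6 and 129.6 CPM in Lgr5 Epcam+ and 57.2 CPM in HF (-1.55 [-1.68 to -1.43]). It fell against Lgr5 Epcam+ (log2 -2.91, edgeR adjusted p = 0.00249), as did Krt17 (-3.12, edgeR adjusted p = 0.00190). The chemokine Cxcl1 had 166.8 CPM in Lgr5 Epcam-, 276.4 and 224.2 CPM in Lgr5 Epcam+ and 57.6 CPM in HF (1.53 [1.46 to 1.61]). These keratins were highest in the Lgr5 Epcam+ samples and lowest in Lgr5 Epcam-, and Cxcl1 was above HF in all 4 tumour samples.

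Signalling lists held fewer called genes than the EMT and matrix lists. Over all genes 8.96% were called higher and 8.89% lower, and the counts here are not read as a result about a pathway. Of 12 AP-1 genes 2 were higher (Fosl1, and Batf at the limit, with 0.88 in the single-end run) and 0 lower (median 0.57), and Fosl1 had 72.2 CPM in Lgr5 Epcam-, 90.6 and 49.95 CPM in Lgr5 Epcam+ and 17.6 CPM in HF (2.03 [1.90 to 2.18]). Of 13 Ras-MAPK feedback genes 3 were higher (Dusp4, Dusp5 and Phlda1) and 0 lower (median 0.44). Of 18 TGF-beta pathway genes 1 was higher, Smad6, which lies in a chromosome 9 stretch, and 0 lower, although the median was 0.71 and Smad3 (0.97), Ltbp1 (0.95) and Smad7 (0.94) sat just under the limit. Of 13 Hippo and Tead genes 3 were higher and 0 lower, and Ankrd1, a Yap target, had 94.1 CPM in Lgr5 Epcam-, 21.9 and 28.0 CPM in Lgr5 Epcam+ and 22.3 CPM in HF (2.08 [1.96 to 2.20]). Ankrd1 rose against Lgr5 Epcam+ (log2 1.92, edgeR adjusted p = 0.00539), and Yap1 itself is described with chromosome 9.

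Among Wnt and Notch genes 1 of 20 was higher (Wnt10b, 1.62) and 1 lower (median -0.23). The lower one, Sfrp1, a secreted Wnt inhibitor, had 63.3 CPM in Lgr5 Epcam-, 185.2 and 266.5 CPM in Lgr5 Epcam+ and 267.0 CPM in HF (-2.08 [-2.14 to -2.01]), and fell against Lgr5 Epcam+ (log2 -1.83, edgeR adjusted p = 0.0127). Of 15 Runx, Ets and nuclear factor I genes 1 was higher (Elk3, 1.04, or 0.57 centred on neighbouring peaks) and 0 lower. Of 11 p53 targets 0 were called in either direction (median 0.18). Of 12 Hox genes 2 were lower, Hoxc13 and Hoxa9 (-1.31, or -0.96 centred on neighbouring peaks), and 0 higher.

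Outside the lists, the genes of largest ratio included Aebp1, a factor of matrix-producing cells, with 110.7 CPM in Lgr5 Epcam-, 48.5 and 64.3 CPM in Lgr5 Epcam+ and 22.8 CPM in HF (2.28). Cmklr1, a chemerin receptor, had 149.1 CPM in Lgr5 Epcam-, 76.2 and 34.4 CPM in Lgr5 Epcam+ and 31.5 CPM in HF (2.24). Vmp1, beside Mir21a, had 443.6 CPM in Lgr5 Epcam- and 83.0 CPM in HF (2.42), and Fbxl13, Ifi204, Tigit and Vmn1r43 had ratios of 2.23 to 2.55. The largest losses after Krt15 were Rps23rg1 (-3.30), Atp8a2 (-3.18) and 2310050C09Rik (-3.13). Atp8a2, a phospholipid flippase, had 33.2 CPM in Lgr5 Epcam-, 39.2 and 65.6 CPM in Lgr5 Epcam+ and 302.0 CPM in HF, so that HF stood apart. Apoe, a lipid carrier (-2.80), and Cyp2b19, a cytochrome P450 of the epidermis (-2.96), were lower as well. Rps23rg1, Ifi204 and Vmn1r43 belong to families with similar copies, whose reads the counting could have split.

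Single peaks had larger ratios than whole genes. They were ranked among called peaks with a mean level above the median of all peaks, outside the chromosome 9 stretches and with a gene within 50 kb. The strongest loss of this set lay at chr11:100129594-100130852, 907 bp from Krt15, with 1.13 CPM in Lgr5 Epcam-, 1.22 and 1.71 CPM in Lgr5 Epcam+, 51.9 CPM in HF and 48.9 CPM in IFE (-5.46 [-5.96 to -5.11]). A peak inside Kank1, chr19:25336618-25337676, had 1.32 CPM in Lgr5 Epcam-, 1.40 and 1.43 CPM in Lgr5 Epcam+ and 56.4 CPM in HF (-5.37). All tumour samples were near the floor at both. Among the gains outside chromosome 9, a peak inside Mtss1, chr15:58997660-58998678, had 27.6 CPM in Lgr5 Epcam-, 48.1 and 31.6 CPM in Lgr5 Epcam+ and 1.18 CPM in HF (4.49 [4.11 to 5.02]). Peaks near Nfatc2 (4.49), Synpo (4.50) and Sec61b (4.42) gained as much, and none of these 4 passed the threshold against Lgr5 Epcam+ in edgeR (adjusted p of 0.399 to 0.693). A peak over a promoter of Trim12a, of a family with similar copies, had a ratio of 5.09. Further losses of this set lay inside Immp2l (-5.43), Atp8a2 (-5.11) and Ptprk (-5.04) and near Hs3st2 (-5.42). Peaks below that level were not ranked, and some had ratios under -6. The peak with the largest ratio of this set lies on chromosome 1, 24470 bp from Col19a1. It had 1130 CPM in Lgr5 Epcam-, 1035 and 1261 CPM in Lgr5 Epcam+, 60.8 CPM in K14 Epcam+, 26.1 CPM in HF and 78.4 CPM in IFE. Its ratio to HF was 1.60 in the single-end run and 5.74 in the paired-end run. The cause of this gap between runs was not tested, and the peak is not read as a gain of Col19a1.

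Chromosome 9 held short stretches in which nearly every peak was high in Lgr5 Epcam- alone. They were found as runs whose median ratio to HF over 25 neighbouring peaks was at least 1.5, and were set aside above when peaks and genes were ranked. There were 7, with 352 peaks, of which 325 were called higher. The first, chr9:7734722-8117403, held 137 peaks over 383 kb, which is 358 peaks per Mb against 76 per Mb on chromosome 9 as a whole. Its peaks had a median of 25.97 CPM in Lgr5 Epcam-, 2.35 and 1.24 CPM in Lgr5 Epcam+ and 2.17 CPM in HF (median log2 ratio 3.50). It covers Yap1, a co-activator of the Hippo pathway, Birc2 and Birc3, inhibitors of apoptosis, and Tmem123, Cfap300 and Cep126.

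Yap1 had 2930 CPM in Lgr5 Epcam-, 228.5 and 147.2 CPM in Lgr5 Epcam+, 158.9 CPM in K14 Epcam+, 231.4 CPM in HF and 226.5 CPM in IFE (3.66 [3.63 to 3.70]), and 40 of its 42 peaks were called higher. Birc2 had 1022 CPM in Lgr5 Epcam-, 78.7 and 58.5 CPM in Lgr5 Epcam+ and 92.8 CPM in HF (3.46 [3.40 to 3.52]), with all of its 12 peaks called higher. Both rose against Lgr5 Epcam+ (log2 3.96 for Yap1 and 3.90 for Birc2, edgeR adjusted p = 0.000296 for each). The other 5 samples lay between 147.2 and 231.4 CPM at Yap1 and between 58.5 and 92.8 CPM at Birc2. Centred on the neighbouring peaks, the ratios to HF were 0.60 for each.

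Stretches at Npsr1 and Dpy19l1 (65 peaks, median log2 ratio 2.81), in a region with no gene, chr9:47367066-47409840 (18 peaks, 2.86), at Uaca (55 peaks, 3.08), Smad6 (48 peaks, 3.10) and Vps13c (28 peaks, 2.81) were likewise high in Lgr5 Epcam- and low in the other 5 samples. Smad6, an inhibitor of BMP signalling, had 1112 CPM in Lgr5 Epcam-, 151.1 and 129.7 CPM in Lgr5 Epcam+ and 174.2 CPM in HF. The Vps13c stretch held 70 peaks per Mb, fewer than chromosome 9 as a whole, and 21 of its 28 peaks were called higher. The seventh was a single peak near Ncam1, with a ratio of its own of -1.08, that met the running median only. The rest of chromosome 9 had a median ratio of -0.29, against -0.03 over all peaks. ATAC-seq counts rise with the number of DNA copies as well as with accessibility, and these cannot be told apart here, so the values of genes in these stretches are not measures of open chromatin alone.

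**Figure D5:**
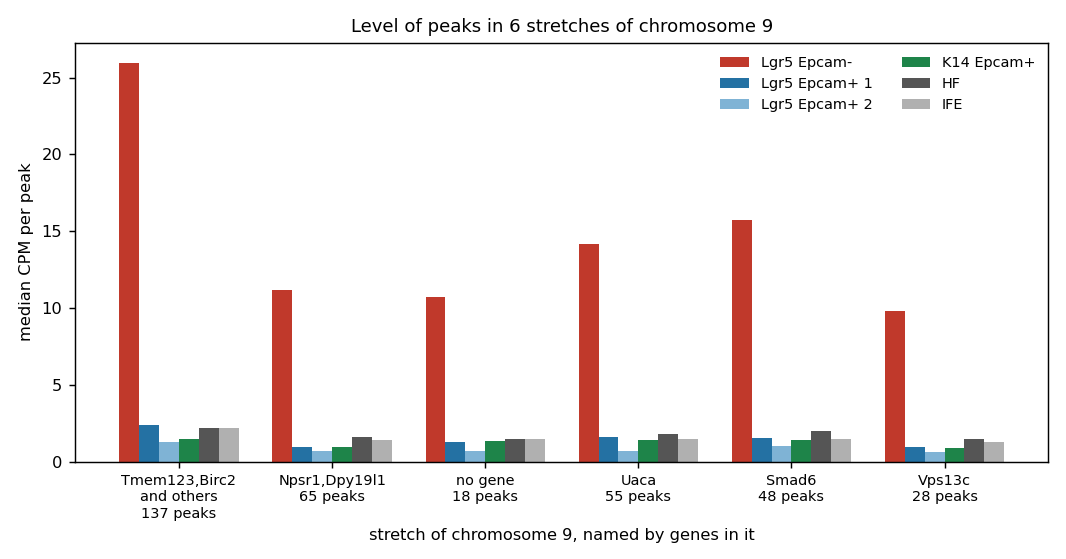
Median CPM per peak in the 6 chromosome 9 stretches with more than 1 peak, by sample. Lgr5 Epcam- lies between 9.78 and 25.97 CPM, and the other 5 samples between 0.59 and 2.35 CPM.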

How the data were processed

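The 12 deposited tables hold raw counts per peak over 1 shared list of peaks, beside HTSeq's own summary lines, which were left out of library sizes. Bowtie2, HOMER, bedtools and HTSeq on mm10 are named, per the submitters' processing notes. Their versions and settings were not stated in these sources. The full genotype and some members of the gene lists are not reported here. Both runs of a sample were summed. Counts were scaled by TMM and compared with edgeR 4.0.16 (R 4.3.3; filterByExpr, minimum count 10; robust quasi-likelihood F test; Benjamini-Hochberg over all peaks or genes, threshold 0.05). Log2 ratios of 1 sample to 1 used a prior count of 2. A peak was given to the closest protein-coding gene within 50 kb (RefSeq, GRCm38.p6), which 82.7% of peaks had. On simulated counts of 18235 genes for Lgr5 Epcam- against Lgr5 Epcam+, the test called 14% of genes changed by a log2 of 1 and 88% of those changed by 2. It also made 15 false calls. The simulation gave all genes the same dispersion and changed only genes of higher count, so these shares may not hold for the data. Named genes are up to 4 called and 2 uncalled members per list, a fixed set of EMT, keratin and sort markers, and the 8 higher and 8 lower of largest ratio. Genes outside this rule (such as Krt17, Col1a2, Tagln and Loxl2) and the miRNA loci were chosen after their values were seen. The comparison and the gene lists were chosen with earlier results of these data known. Alternatives were other scalings, prior counts, limits, filters, gene distances, background subtraction, local centring, each run alone and DESeq2 1.42.0.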

Additional observations from a re-analysis of the deposited data

Results flagged for a closer look

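Within the fixed set of named genes, 9 are listed here whose change from HF differed between Lgr5 Epcam- and Lgr5 Epcam+. This is by the edgeR test of Lgr5 Epcam- over Lgr5 Epcam+, in which HF cancels. Over all genes, 567 (3.11%) rose and 538 (2.95%) fell in that test, so 9 is not the number of genes that differed. The difference was -2.06 (log2) for Epcam, -1.49 for Cdh1, -2.11 for Krt14, -2.40 for Krt5, -1.28 for Krt15, -1.59 for Grhl2 and -1.83 for Esrp1. For Yap1 it was 3.96 and for Birc2 3.90, both in a chromosome 9 stretch. Krt15 differed from the rest in that Lgr5 Epcam+ was itself far below HF.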

How the results depend on the processing

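No called gene and no list with a median beyond 0.2 changed sign against HF under any alternative run; the medians of the housekeeping, immune and p53 lists did, and so did Sox9, which was not called. Local centring cut several list medians by over 1.5 times beside those given above: hair shaft and sheath genes had -0.18, squamous wound genes 0.23, Hippo targets 0.21, Ras-MAPK genes 0.29 and Hox genes -0.05. The muscle and adipocyte median of 0.31 was 1.19 after background subtraction, 0.10 in the paired-end run and 0.05 from peaks within 10 kb, where that of Wnt and Notch genes was -0.03. Call counts depended on the limit: 1 higher on the log2 scale, 2055 peaks were higher and 2862 lower, and 166 genes higher and 281 lower; with the limit at 0.5 of its size, 39930 and 35841 peaks and 4311 and 4093 genes. After background subtraction they were 32269 and 31447 peaks and 3151 and 2500 genes. For Lgr5 Epcam- over Lgr5 Epcam+, DESeq2 called 5624 peaks higher and 10276 lower (35.4% higher, against 55.9% with edgeR), and total-count scaling 246 genes lower. The cause of the DESeq2 split was not tested. miRNA windows under 6 alternatives, chosen after seeing the data, ranged from 99 to 136 higher and 40 to 69 lower. Leaving out an Lgr5 Epcam+ sample left no residual degree of freedom. No paired analysis was possible, since Lgr5 Epcam- and HF have 1 sample each and the sample titles do not pair Lgr5 Epcam- with an Lgr5 Epcam+ sample. With 1 sample a side, no ratio to HF has a replicate check.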

Other observations

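Median log2 ratios of Lgr5 Epcam- to HF by chromosome ran from -0.23 on chromosome 9 to 0.18 on chromosome 15 among the autosomes. The paired-end run gave -2.71 for Krt5 and 2.35 for Snai1, and the single-end run -2.17 and 1.66.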
